A study of Arabidopsis thaliana with 9 samples.

Results

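The genes described here are 9 Arabidopsis genes of the salicylate pathway, of the linked pipecolate pathway and of the pathogenesis-related (PR) proteins, taken as a fixed set of gene identifiers. They are ICS1, NPR1, ALD1, FMO1 and PR1 to PR5. Of these 9, 6 had a row in at least 1 library table, out of 24140 genes with a row. PR1 (AT2G14610), PR2 (AT3G57260) and PR5 (AT1G75040) had no row in any of the 9 library tables and are not analysed here. Their absence is not read as a level of 0.

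RNA was sequenced from roots of Arabidopsis thaliana seedlings aged 9 days and grown on 1/2 MS medium, with 3 libraries for each of 3 genotypes. The first, 35S:ERF13:MYC, is labelled as overexpressing ERF13, a transcription factor of the ethylene response factor (ERF) class, from the constitutive 35S promoter with a MYC tag. The second, erf13-3, carries that name in its titles, while the genotype field describes ERF13 with an SRDX domain. SRDX is a short domain that makes a repressor of the transcription factor it is fused to. The third is the wild type (WT). Whether replicate libraries came from separate plants or cultures, and how many independent lines were used, is not in the labels. The p-values then cover only the spread among libraries, part of which may be technical.

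Salicylate is the hormone of defence against biotrophic pathogens. In Arabidopsis most of the salicylate made on infection comes from chorismate through isochorismate synthase, and the hormone acts through NPR1, which joins TGA transcription factors at defence gene promoters. A second signal, N-hydroxypipecolate, carries resistance from infected to distant leaves. PR proteins are secreted or vacuolar defence proteins. In Arabidopsis PR1, PR2 and PR5 are the usual markers of salicylate, whereas PR3 and PR4 are known as targets of jasmonate and ethylene, and members of the ERF family bind a GCC box in promoters of such genes.

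ERF13 itself (AT2G44840) checked the labels only as far as telling either line from WT, and does not show which line is which. It had 905, 789 and 773 FPKM (fragments per kilobase of transcript, scaled to library depth) in the 35S:ERF13:MYC libraries, 2595, 2711 and 3043 in the erf13-3 libraries, and 1.03, 0.96 and 1.25 in WT. Both lines therefore held far more ERF13 transcript than WT, and transgene and endogenous transcripts cannot be told apart here. Library totals ran from 12147128 to 12324144 expected counts. The 8 root marker genes had counts in all 9 libraries and summed to 11027.1 to 12521.3 FPKM in 35S:ERF13:MYC, 8025.3 to 8579.2 in erf13-3 and 11343.8 to 13388.9 in WT. Most of this sum was PYK10, with means of 11191 FPKM in 35S:ERF13:MYC, 7788.6 in erf13-3 and 12004 in WT. The 11 green tissue markers summed to 87.3 to 159.6 FPKM in 35S:ERF13:MYC, 563.1 to 650.6 in erf13-3 and 244.2 to 287.0 in WT. With the same edgeR test as below, 2 of the 8 root markers were called lower in 35S:ERF13:MYC, and 3 were called higher and 2 lower in erf13-3, each against WT. In erf13-3 the higher 3 were SHR, SCR and WER, and the lower 2 were PYK10 and PHO1. Of the green markers, 6 of the 11 were called lower and none higher in 35S:ERF13:MYC, and 8 were called higher and none lower in erf13-3. Markers without a row in a library, taken as 0, were LHCB1.1 in 35S:ERF13:MYC replicate 3, and RBCS1B and RBCS2B in WT replicate 1. The part of green or root tissue in the results below was not tested, and in bulk tissue fewer cells of a type and less RNA per cell cannot be told apart.

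In erf13-3 roots ICS1, NPR1, PR3 and PR4 fell and FMO1 rose against WT. PR3 was 24.9-fold lower, PR4 3.79-fold lower and ICS1 2.29-fold lower, and FMO1 was 7.79-fold higher. Roots of 35S:ERF13:MYC had PR4 1.82-fold lower, and neither FMO1 nor ALD1 had a count in any library. Changes were tested with edgeR's quasi-likelihood test on the expected counts of all 9 libraries, and the call was an adjusted p under 0.05 (Benjamini-Hochberg, over the 19714 genes tested). ALD1 had too few counts to be tested, and FMO1 passed the filter on low counts through its erf13-3 libraries, so the counts of members below are descriptions. Of the 5 members tested, 2 were called in 35S:ERF13:MYC against WT, where 31.5% of all genes tested were called. In erf13-3 against WT 5 of 5 were called, against 27.3% of all genes. Between erf13-3 and 35S:ERF13:MYC 5 of 5 were called, against 38.7% of all genes. The first and second comparisons share the WT libraries, and the third shares the libraries of both lines with them.

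**Figure D1:**
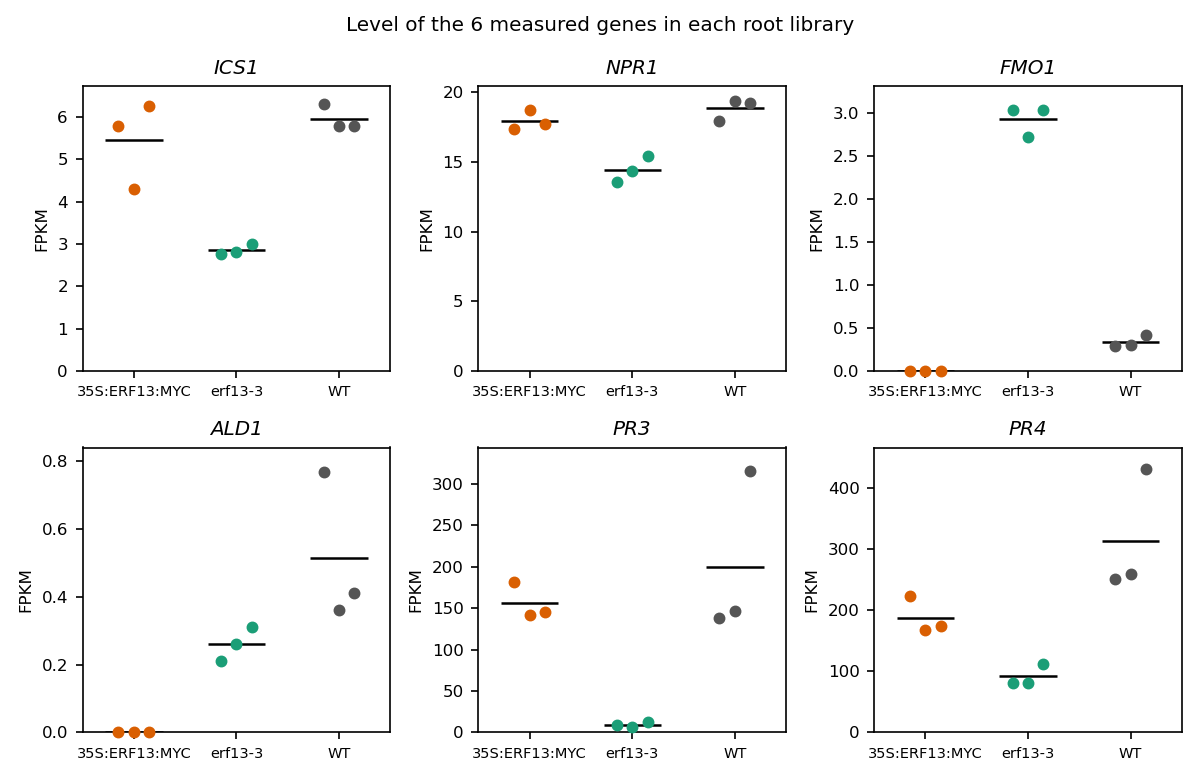
Level in FPKM (vertical axis, linear from 0) of the 6 measured genes in each of the 3 libraries of 35S:ERF13:MYC, erf13-3 and WT, with a bar at each mean. The erf13-3 points lie below all WT points for every gene but FMO1, where they lie above, and FMO1 and ALD1 are at 0 in 35S:ERF13:MYC.

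ICS1 (AT1G74710, chromosome 1, 28070295 to 28074177, plus strand, TAIR10.1) encodes the isochorismate synthase that feeds salicylate synthesis on infection. Its level was 5.78, 4.31 and 6.26 FPKM in 35S:ERF13:MYC, 2.76, 2.80 and 3.01 FPKM in erf13-3, and 6.30, 5.78 and 5.80 FPKM in WT. The erf13-3 libraries lay below all others, while those of 35S:ERF13:MYC overlapped WT. In erf13-3 against WT the log2 fold change was -1.19 (SE 0.15, adjusted p = 9.1e-05). For 35S:ERF13:MYC against WT it was -0.24 (SE 0.14, adjusted p = 0.2), which was not called. Between erf13-3 and 35S:ERF13:MYC it was -0.95 (SE 0.15, adjusted p = 0.00029).

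The second isochorismate synthase gene, ICS2, was the more abundant of the pair per length. The ratio of ICS2 to ICS1 FPKM was 6.24, 7.07 and 4.81 in 35S:ERF13:MYC, 30.2, 35.5 and 33.5 in erf13-3, and 11.3, 10.6 and 14.97 in WT, so the 3 genotypes did not overlap in this ratio. ICS2 fell in 35S:ERF13:MYC, at -1.30 on the log2 scale (SE 0.15, adjusted p = 6.5e-05). In erf13-3 it was at 83.5 to 101 FPKM, against 61.3 to 86.8 FPKM in WT, and was not called (log2 fold change 0.23, SE 0.15, adjusted p = 0.28). It was called higher there without WT replicate 3 (log2 fold change 0.42, adjusted p = 0.018) and in the limma fits on FPKM (0.38 in both). How reads shared by the ICS copies were assigned is not given in the sources used here, so their values are uncertain to that extent.

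NPR1 (AT1G64280, chromosome 1, 23852748 to 23855658, minus strand) encodes the salicylate receptor and transcriptional coactivator. It had 17.4, 18.8 and 17.8 FPKM in 35S:ERF13:MYC, 13.5, 14.4 and 15.4 FPKM in erf13-3, and 18.0, 19.4 and 19.3 FPKM in WT. Its SD was at most 0.941 FPKM in any genotype, and the erf13-3 libraries were lower than the other 6. The fall in erf13-3 against WT was the smallest of the called members (log2 fold change -0.52, SE 0.10, adjusted p = 0.0015). Against 35S:ERF13:MYC the log2 fold change of erf13-3 was -0.34 (SE 0.10, adjusted p = 0.015). Leaving out replicate 2 of 35S:ERF13:MYC ended that call (adjusted p = 0.064), as did leaving out erf13-3 replicate 1 (adjusted p = 0.068). The value for 35S:ERF13:MYC against WT was -0.18 (SE 0.09, adjusted p = 0.16), not called.

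FMO1 (AT1G19250, chromosome 1, 6650476 to 6653195, minus strand) encodes the flavin-dependent monooxygenase that makes N-hydroxypipecolate. It had 0 counts in all 3 libraries of 35S:ERF13:MYC, 71, 64 and 71 counts in erf13-3, and 7, 7 and 10 counts in WT. In FPKM it was listed at 3.03, 2.72 and 3.03 in erf13-3 and at 0.29, 0.30 and 0.42 in WT, so the 3 genotypes did not overlap. Because FMO1 passed the filter through its erf13-3 libraries, its test with no filter on low counts is given beside each value. It rose in erf13-3 against WT (log2 fold change 2.96, SE 0.25, adjusted p = 1.7e-05, and 4.3e-06 with no filter). Against a floor of 3 counts per library, it was at least 2.88-fold lower in 35S:ERF13:MYC than in WT (adjusted p = 3e-04 with no filter). It was at least 22.6-fold higher in erf13-3 than in 35S:ERF13:MYC (adjusted p = 6.3e-08 with no filter). FMO1 and the summed green tissue markers were both lowest in 35S:ERF13:MYC and highest in erf13-3, and the part of those markers in this result was not tested.

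ALD1 (AT2G13810, chromosome 2, 5768417 to 5772266, plus strand) encodes the aminotransferase that starts pipecolate synthesis from lysine. It had 0 counts in all 3 libraries of 35S:ERF13:MYC, 4, 5 and 6 counts in erf13-3, and 15, 7 and 8 counts in WT. Every erf13-3 library was below every WT library, at 0.21 to 0.31 FPKM against 0.36 to 0.77 FPKM, which is the opposite order to FMO1. Against the floor of 3 counts per library ALD1 was at least 3.55-fold lower in 35S:ERF13:MYC than in WT and at least 1.65-fold higher in erf13-3 than in 35S:ERF13:MYC. With no filter on low counts it was tested, and in erf13-3 against WT it was not called (log2 fold change -1.1, adjusted p = 0.14), whereas both comparisons with 35S:ERF13:MYC were called (adjusted p = 0.00057 against WT and 0.0041 for erf13-3). Floors cover counting error only.

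PR3 (AT3G12500, chromosome 3, 3962136 to 3963984, minus strand) encodes a basic chitinase that hydrolyses fungal wall chitin. It had 181, 142 and 146 FPKM in 35S:ERF13:MYC, 8.46, 6.26 and 12.1 FPKM in erf13-3, and 138, 146 and 315 FPKM in WT. The erf13-3 libraries stood far below the other 6, and WT replicate 3 stood above the other WT libraries. In erf13-3 against WT the log2 fold change was -4.64 (SE 0.37, adjusted p = 3.4e-06), and without WT replicate 3 it was -4.09 (adjusted p = 3e-08). Between erf13-3 and 35S:ERF13:MYC it was -4.15 (SE 0.37, adjusted p = 3e-06). In 35S:ERF13:MYC against WT it was -0.49 (SE 0.30, adjusted p = 0.24), not called, and without WT replicate 3 it was 0.04 (adjusted p = 0.88).

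PR4 (AT3G04720, chromosome 3, 1285425 to 1286760, minus strand) encodes a hevein-like protein that binds chitin. Its level was 223, 167 and 174 FPKM in 35S:ERF13:MYC, 81.0, 81.4 and 112 FPKM in erf13-3, and 251, 260 and 431 FPKM in WT. WT replicate 3 was again the highest, and the 3 genotypes did not overlap. PR4 fell in erf13-3 against WT (log2 fold change -1.92, SE 0.24, adjusted p = 9.1e-05), and without WT replicate 3 its log2 fold change was -1.58. It fell in 35S:ERF13:MYC against WT (log2 fold change -0.87, SE 0.23, adjusted p = 0.014). That value was -0.54 without WT replicate 3 (adjusted p = 0.023), and leaving out replicate 2 (adjusted p = 0.065) or replicate 3 (adjusted p = 0.055) of the line ended the call. Its level was also lower in erf13-3 than in 35S:ERF13:MYC, at -1.06 on the log2 scale (SE 0.23, adjusted p = 0.0035).

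The ratio of PR4 to PR3 FPKM was 1.23, 1.18 and 1.19 in 35S:ERF13:MYC, 9.57, 13.01 and 9.28 in erf13-3, and 1.81, 1.78 and 1.36 in WT. The ratio was thus lower in every 35S:ERF13:MYC library, and higher in every erf13-3 library, than in any WT library. In an exact two-sided permutation test of the log2 ratio, p was 0.1 for each line against WT, the smallest that 3 libraries against 3 allow.

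Because members of the ERF family bind the GCC box, the stretches that hold its core letters in the promoters of PR3 and PR4 are shown, each 100 bases on the gene's strand. They were read from the RefSeq genome TAIR10.1, with the core GCCGCC in capitals, and lie at chr3:3964571-3964670 (minus strand) for PR3 and chr3:1287096-1287195 (minus strand) for PR4.
PR3: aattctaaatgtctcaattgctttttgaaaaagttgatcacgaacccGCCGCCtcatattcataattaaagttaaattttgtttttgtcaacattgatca
PR4: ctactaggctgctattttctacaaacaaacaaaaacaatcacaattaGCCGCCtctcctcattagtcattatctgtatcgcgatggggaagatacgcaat
The core began 639 bases before the annotated start of PR3 and 388 bases before that of PR4, on the gene's strand in both. Within 1000 bases before the start, on either strand, the core occurred in 2 of the 6 measured members, PR3 and PR4, and in 8.44% of 27443 protein-coding genes. Within 250 bases it occurred in none of the 6 and in 1.87% of genes. Of the 3 members without a row, PR1 holds the core within 1000 bases, from 556 bases before its start on the other strand, and PR2 and PR5 do not.

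Other motifs of defence promoters were searched in the same windows, on both strands. The W box core TTGAC, the letters WRKY factors bind, was present within 1000 bases in 5 of the 6 members, NPR1 being without it, and in 88.1% of all genes. The TGA factor core TGACG was present in 2 of the 6, ALD1 and PR3, and in 54.1% of all genes. The last 4 letters of the W box core are the first 4 of the TGA core, so TTGACG would count for both, and no match in these 6 promoters did. Within 250 bases the only match of any of the 3 motifs was the TGA core of PR3. FMO1, the member that moved up in erf13-3, had none in that window, chr1:6653196-6653445 (minus strand), shown because it is the promoter of the gene that moved against the rest.
FMO1: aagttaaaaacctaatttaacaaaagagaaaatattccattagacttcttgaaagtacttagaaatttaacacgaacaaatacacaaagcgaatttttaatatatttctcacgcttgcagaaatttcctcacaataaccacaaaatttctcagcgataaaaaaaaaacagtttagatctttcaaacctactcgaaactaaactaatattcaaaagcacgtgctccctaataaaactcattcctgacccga
These matches are letters in a window and say nothing on whether a factor binds there.

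**Figure D2:**
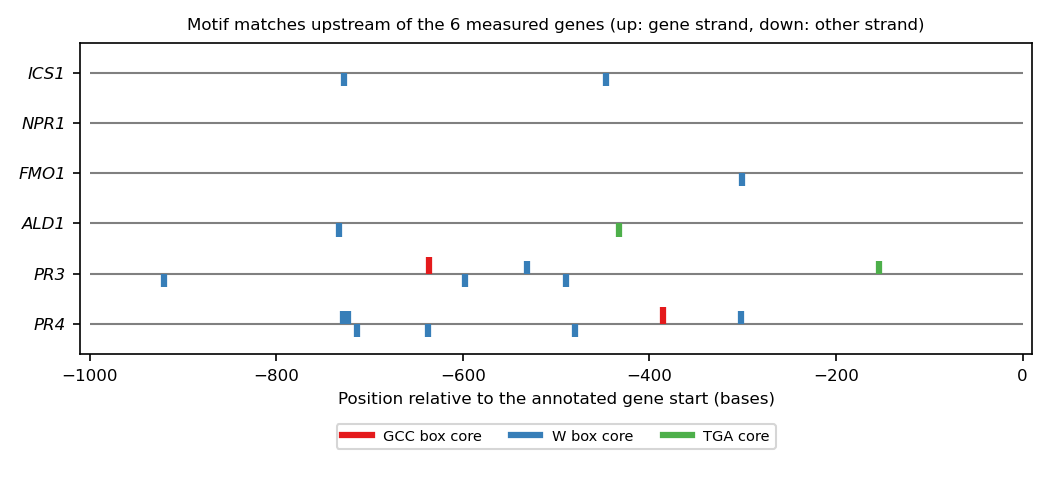
Matches of the GCC box, W box and TGA cores in the 1000 bases before the annotated start of each measured gene (horizontal axis, bases), drawn up for the gene's strand and down for the other. The GCC box core appears at 639 bases before PR3 and 388 before PR4.

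**Figure D3:**
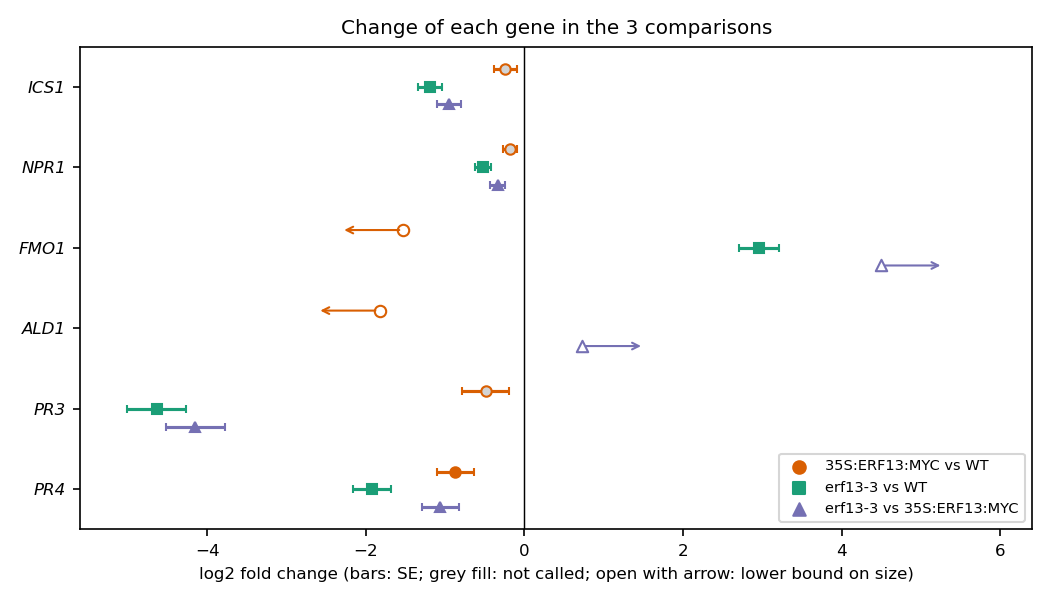
log2 fold change of each measured gene (horizontal axis) in the 3 comparisons, with bars of 1 SE, grey fill where a change was not called, and open symbols with arrows where the value is a lower bound on its size. PR3 has the largest called fall in erf13-3 against WT, at -4.64, and FMO1 lies on opposite sides of 0 in the 2 lines.

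The order of levels among the members, per length and in FPKM, differed between genotypes. In 35S:ERF13:MYC PR4 averaged 188 ± 30.4, PR3 156 ± 21.7, NPR1 18.0 ± 0.723 and ICS1 5.45 ± 1.02 (SD, n = 3), with ALD1 and FMO1 at 0. In erf13-3 PR4 averaged 91.5 ± 17.8, NPR1 14.4 ± 0.941, PR3 8.93 ± 2.93, FMO1 2.93 ± 0.179, ICS1 2.86 ± 0.134 and ALD1 0.260 ± 0.050 (SD, n = 3). In WT PR4 averaged 314 ± 101, PR3 199.96 ± 100.07, NPR1 18.9 ± 0.779, ICS1 5.96 ± 0.295, ALD1 0.513 ± 0.224 and FMO1 0.337 ± 0.0723 (SD, n = 3). PR3 thus stood above NPR1 in every WT and 35S:ERF13:MYC library and below it in every erf13-3 library. Across libraries the ranges of the neighbours PR4 and PR3 overlapped in WT and in 35S:ERF13:MYC, although PR4 was above PR3 within every library. The ranges of ALD1 and FMO1 overlapped in WT, as did those of FMO1 and ICS1 in erf13-3.

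The other genes of the pathway were taken from a list of 53, of which 52 had a row and 41 were tested. In 35S:ERF13:MYC against WT 7 of the 41 rose and 10 fell, with a median log2 fold change of -0.03, against 0.02 over all genes. In erf13-3 against WT 7 rose and 8 fell, with a median of 0.04 against 0.02 over all genes. Between erf13-3 and 35S:ERF13:MYC 12 were higher and 12 lower in erf13-3, with a median of -0.07 against -0.02. Among all genes, 13.8% were called higher and 17.7% lower in the first comparison, 13.6% and 13.7% in the second, and 21.1% and 17.6% in the third. The counts of the second comparison were 3 higher and 5 lower without WT replicate 2, 4 higher without erf13-3 replicate 3, and 5 lower without erf13-3 replicate 1, in the limma fits on FPKM and in the fit of the compared libraries alone.

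Among upstream regulators of salicylate synthesis, which include the lipase-like proteins of immune signalling and the activators of ICS1, 2 of 7 rose and 2 fell in erf13-3 against WT, where 13.6% of all genes were called higher and 13.7% lower. PAD4 (log2 fold change 0.50, adjusted p = 0.0084) and SAG101 (0.64, adjusted p = 0.029), partners of EDS1, rose. EDS1B (-0.69, adjusted p = 0.0071) and the calmodulin-binding factor CAMTA3 (-0.47, adjusted p = 0.033) fell. For SAG101 and CAMTA3 the erf13-3 libraries overlapped those of WT. These 4 were named after their values were seen, and EDS1 and EDS1B are close copies that may share reads. None of the 7 upstream regulators was called in 35S:ERF13:MYC against WT, where 31.5% of all genes were called. In a group of 13 tested genes, made up of SNI1 and of NPR, NIMIN and TGA genes, 3 rose and 2 fell in 35S:ERF13:MYC. SNI1 was among those that rose. In erf13-3 1 of the group rose and 2 fell. These shares were near the 31.5% and 27.3% of all genes called. NPR2, the paralog nearest to NPR1, rose in 35S:ERF13:MYC to 6.56, 5.97 and 5.48 FPKM, against 1.21, 1.13 and 1.69 FPKM in WT (log2 fold change 2.06, SE 0.17, adjusted p = 5e-06). In erf13-3 it was at 1.58 to 1.84 FPKM and was not called against WT (adjusted p = 0.31).

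Of 7 genes that modify salicylate, 1 rose and 3 fell in 35S:ERF13:MYC, and 2 rose and 3 fell in erf13-3, against 31.5% and 27.3% of all genes called. UGT74F2, a glucosyltransferase that makes the salicylate glucose ester, had 4.10, 4.47 and 5.73 FPKM in 35S:ERF13:MYC, 35.5, 40.1 and 39.2 FPKM in erf13-3, and 15.02, 14.2 and 18.3 FPKM in WT. It fell in the first line (log2 fold change -1.85, SE 0.16, adjusted p = 4.9e-06) and rose in the second (1.13, SE 0.13, adjusted p = 6.6e-05). Its tandem copy UGT74F1 may share reads with it, so both values are uncertain. MES1, an esterase that acts on methyl salicylate, fell in erf13-3 to 2.16, 1.41 and 2.99 FPKM, against 11.2, 11.6 and 12.2 FPKM in WT (log2 fold change -2.55, SE 0.21, adjusted p = 4.7e-06). MES1 in 35S:ERF13:MYC was at 10.45 to 13.03 FPKM and was not called (adjusted p = 0.65).

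In the systemic resistance group AZI1, a lipid transfer type protein of priming by azelaic acid, fell in 35S:ERF13:MYC to 11.8, 9.31 and 8.46 FPKM, against 48.3, 60.6 and 71.2 FPKM in WT (log2 fold change -2.72, SE 0.20, adjusted p = 1.7e-06). In erf13-3 it was at 46.6 to 60.4 FPKM, within the WT range at 2 of 3 libraries, and was not called (adjusted p = 0.23). SARD4, the other gene tested in this group, rose in erf13-3 against WT (log2 fold change 0.51, SE 0.14, adjusted p = 0.019). It was also higher in erf13-3 than in 35S:ERF13:MYC (0.44, adjusted p = 0.027), and was not called in 35S:ERF13:MYC against WT (0.07, adjusted p = 0.73). Of 6 downstream genes 3 rose and 2 fell in 35S:ERF13:MYC, and 1 rose in erf13-3, against 31.5% and 27.3% of all genes called, with WRKY46 and WRKY54 tested only because they were high in the first line. WRKY46, at 37 to 84 counts in the line and 3 to 8 in WT, had a log2 fold change of 3.29 (adjusted p = 5.7e-05 with no filter on low counts), and WRKY54 one of 2.39 (adjusted p = 0.00043 with no filter), while their relative WRKY70 fell (-1.38, SE 0.31, adjusted p = 0.006). These WRKY genes had few counts. ROXY19, a glutaredoxin that binds TGA factors, fell in 35S:ERF13:MYC at -1.51 on the log2 scale (SE 0.36, adjusted p = 0.008). In erf13-3 it rose to 12.6 to 12.7 FPKM, against 3.93 to 9.29 FPKM in WT (0.89, SE 0.29, adjusted p = 0.037). The call on this rise ended without WT replicate 1 (adjusted p = 0.12) or 2 (adjusted p = 0.14), and without erf13-3 replicate 1 (adjusted p = 0.083), 2 (adjusted p = 0.077) or 3 (adjusted p = 0.075).

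**Figure D4:**
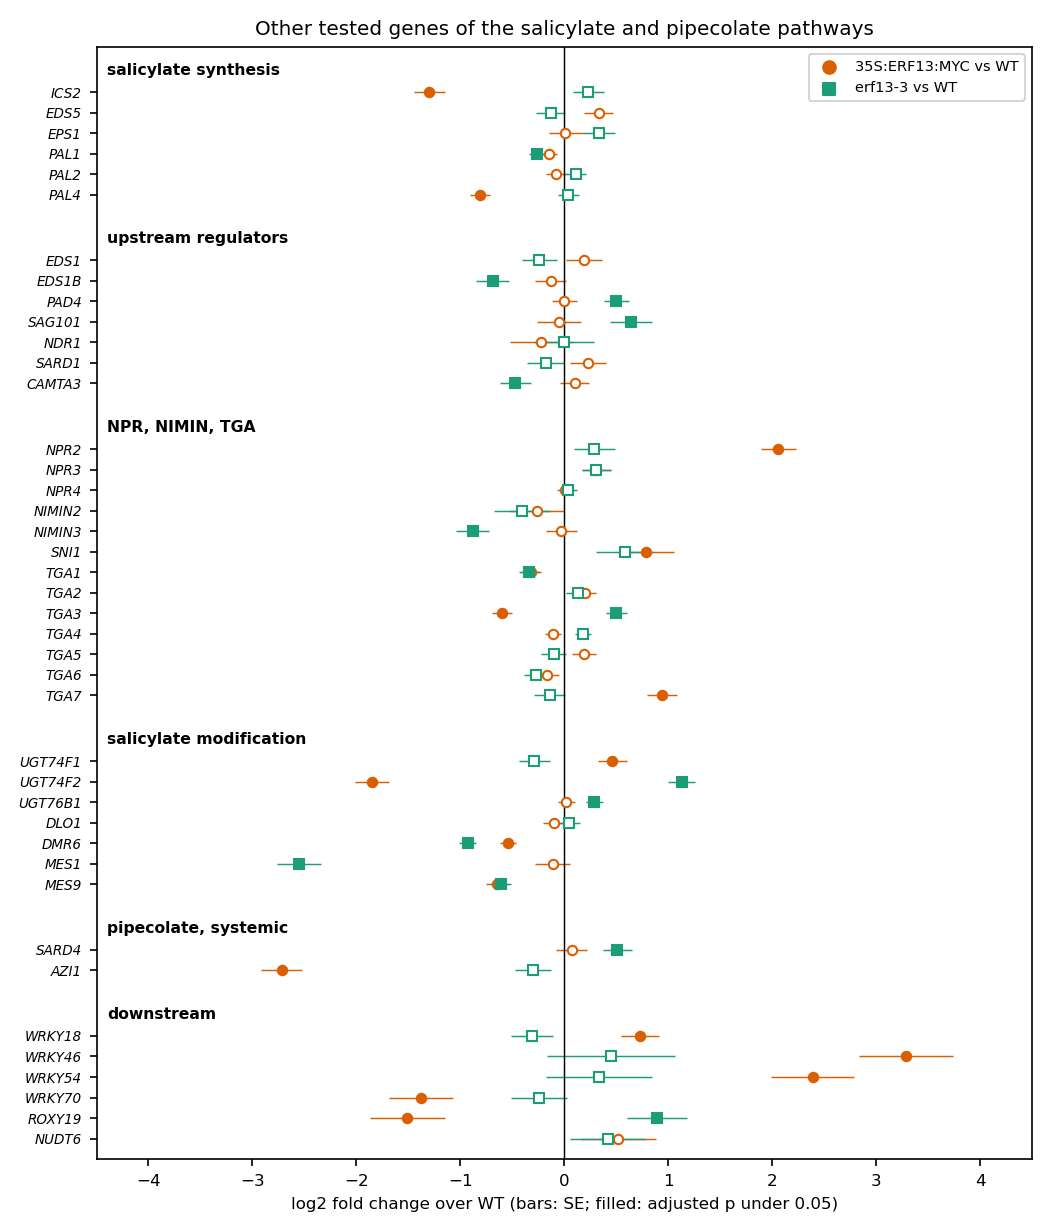
log2 fold change against WT (horizontal axis, bars of 1 SE) of the 41 other tested genes of the pathway, grouped by role, in 35S:ERF13:MYC (circles) and erf13-3 (squares), filled where the adjusted p was under 0.05. AZI1, at -2.72, has the lowest value in 35S:ERF13:MYC and MES1, at -2.55, the lowest in erf13-3.

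Of 12 other genes of PR protein families, 8 had a row and 6 were tested. Among them 4 fell and none rose in 35S:ERF13:MYC, with a median log2 fold change of -0.73, and in erf13-3 4 fell and 1 rose, with a median of -0.43. Those that fell were EP3, CHIA, CTL2 and TLP3 in 35S:ERF13:MYC, and CHIA, CTL1, CTL2 and OSM34 in erf13-3. Over all genes 13.8% were called higher and 17.7% lower in the first comparison, and 13.6% and 13.7% in the second, and both medians were 0.02. OSM34, an osmotin of the thaumatin-like family to which PR5 belongs, had 156, 112 and 121 FPKM in 35S:ERF13:MYC, 14.1, 12.1 and 22.9 FPKM in erf13-3, and 150, 156 and 327 FPKM in WT. Like PR3 and PR4 it was highest in WT replicate 3. In erf13-3 against WT its log2 fold change was -3.84 (SE 0.36, adjusted p = 1.1e-05), and -3.33 without WT replicate 3. For 35S:ERF13:MYC it was -0.84 (SE 0.31, adjusted p = 0.058), which was not called but was called in 5 of 17 alternatives. TLP3, another thaumatin-like gene, fell in 35S:ERF13:MYC at -1.29 on the log2 scale (SE 0.11, adjusted p = 4.2e-06). EP3, a class IV chitinase gene, rose in erf13-3 to 24.3, 24.6 and 29.9 FPKM, against 10.9, 11.1 and 12.6 FPKM in WT (log2 fold change 1.05, SE 0.13, adjusted p = 7.6e-05), opposite to PR3.

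Many of these genes also differed between the lines. In erf13-3 against 35S:ERF13:MYC, ICS2 (log2 fold change 1.53), AZI1 (2.42), UGT74F2 (2.98), ROXY19 (2.41), TGA3 (1.1), EP3 (2.01) and TLP3 (1.01) were higher. NPR2 (-1.76), TGA7 (-1.09), MES1 (-2.44), WRKY46 (-2.83) and OSM34 (-3) were lower. TGA3 and TGA7 encode bZIP factors of the family that NPR1 joins. The adjusted p of the 11 genes other than WRKY46, which passed the filter only through 35S:ERF13:MYC, was at most 0.00011. None of the 11 lost its call when any 1 library was left out. The genes named were picked by their p among genes with a large change, so both results are partly built into the choice. WRKY18 (log2 fold change -1.04), WRKY54 (-2.06) and WRKY70 (1.14) were also called but were left out by that choice. WRKY18 kept its call when any 1 library was left out. WRKY54, like WRKY46, passed the filter only through 35S:ERF13:MYC. With no filter on low counts its log2 fold change was -2.07 (adjusted p = 0.00047). WRKY70 (adjusted p = 0.013) lost its call without 35S:ERF13:MYC replicate 2 (adjusted p = 0.058) or erf13-3 replicate 1 (adjusted p = 0.059).

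Profiles most like those of the members were sought among all tested genes, as the smallest Euclidean distance between centred log2 CPM over the 9 libraries. This is a description, and the distances of low genes depend on the prior count. Nearest to FMO1 was AT1G58320, a PLAC8 family gene, at a distance of 0.58, with mean levels of 0.67 FPKM in 35S:ERF13:MYC, 30.8 in erf13-3 and 4.06 in WT. It was followed by AT4G09110, a RING/U-box gene (distance 1.02), and AT1G29020, an EF-hand gene (1.07). Nearest to PR3 were AT2G34610, annotated as a cotton fiber protein (1.32), CYP81D5, a cytochrome P450 gene (1.39), and OSM34 (1.44). Nearest to ICS1 were SOS3 (0.41), the calcium sensor of salt tolerance, BCA4 (0.41), a beta carbonic anhydrase gene, and AT4G03540 (0.42).

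In the authors' deposited table for erf13-3, which lists 1656 genes with a log2 ratio of mean FPKM of at least 1 in size, 4 of the members are listed. Its log2 ratios are -1.06 for ICS1, 3.12 for FMO1, -4.48 for PR3 and -1.78 for PR4. None of the 9 members is listed in the authors' deposited table of 1305 genes for 35S:ERF13:MYC, FMO1 and ALD1 included, although neither had a count in that line.

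In the edgeR fit 6209 genes were called in 35S:ERF13:MYC against WT, of which 43.7% were higher, and 3896 without 35S:ERF13:MYC replicate 2. In limma fits on FPKM, which had no TMM scaling, 60.4% or 59.9% of the calls were higher, and the median log2 fold change of all genes was 0.12 or 0.13. For erf13-3 against WT 2689 genes were called higher and 2692 lower, while 71.1% or 70.8% of the calls were higher in the limma fits, where the median was 0.13 or 0.15. The called members kept their direction in those fits.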

How the data were processed

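RNA-seq measured expression in 9 root libraries, 3 per genotype, grouped by their titles. Per the file headers, the authors' library tables hold an expected count and an FPKM per gene. Their comparison tables, 1 per line, hold a log2 ratio of mean FPKM and a score named Probability (no p-value), per the file headers. Aligner, counter, genome build and strand setting: not given in the sources used here, so overlapping and antisense genes are uncertain. A library table has rows only for genes above 0. A gene without a row in some tables was taken as 0, and a gene absent from all 9 was not analysed. Gene positions and promoters are from RefSeq TAIR10.1. All 2547 protein-coding genes with a position in the authors' tables overlapped the RefSeq gene, and 1787 had the same start and end.

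The rounded expected counts went into edgeR 4.0.16 (R 4.3.3) with filterByExpr (minimum count 10), TMM factors (0.895 to 1.06), a quasi-likelihood fit of all 9 libraries with a mean per genotype (6 residual degrees of freedom) and Benjamini-Hochberg adjustment over 19714 genes. The SE of a log2 fold change is its size over the root of the F statistic. The code was tested on simulated data. Alternatives were DESeq2 1.42.0, other scaling and filters, limma 3.58.1 on log2(FPKM + 1) or log2(FPKM + 0.1), fits of the compared groups alone, a replicate block, and leaving out each library. The members and gene lists were chosen with earlier results of these data known. Named besides the members are pathway and PR family genes called with a log2 fold change of at least 1 in size, up to 12 per comparison by p, their values in the other comparisons, ERF13 and the nearest profiles. PAD4, SAG101, EDS1B, CAMTA3, SARD4, CHIA, CTL1 and CTL2 were named after their values were seen.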

Additional observations from a re-analysis of the deposited data

Results flagged for a closer look

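A few genes were called in opposite directions in 35S:ERF13:MYC and erf13-3, each against WT, and were also called between the lines in the same edgeR fit. A gene was named here only if it had all of these calls. The p-values between the lines were thus part of the choice and are no separate support. The lines share their WT libraries. Of all genes tested, 31.5% were called in 35S:ERF13:MYC and 27.3% in erf13-3, each against WT, and how many had opposite calls was not counted. The genes below were all lower in 35S:ERF13:MYC and higher in erf13-3. The same holds for 6 of the 11 green tissue markers, RBCS1A, RCA, LHCB2.1, LHCB3, GAPA and GAPB. The other 5 were not called in 35S:ERF13:MYC against WT. There RBCS1B (log2 fold change 1.06), RBCS2B (1.34), RBCS3B (1.3) and LHCB1.1 (0.91) had higher values, and PSAF was at -0.03. The part of green tissue in the results of this section was not tested. FMO1 was at least 22.6-fold higher in erf13-3 than in 35S:ERF13:MYC, where it had no count. It passed the filter on low counts only through erf13-3, and with no filter its adjusted p was 6.3e-08. UGT74F2 differed by 2.98 on the log2 scale (SE 0.15, adjusted p = 4.7e-08). EP3 differed by 2.01 on the log2 scale (SE 0.13, adjusted p = 3.4e-07), with log2 fold changes of -0.95 in 35S:ERF13:MYC and 1.05 in erf13-3 against WT. ROXY19 differed by 2.41 (SE 0.33, adjusted p = 0.00011), but its call in erf13-3 against WT (adjusted p = 0.037) was lost in 5 of the 9 fits that left out a library, with adjusted p of 0.075 to 0.14. TGA3 differed by 1.1 (SE 0.10, adjusted p = 4.1e-06), with 11.5 to 13.2 FPKM in 35S:ERF13:MYC, 26.6 to 28.5 FPKM in erf13-3 and 16.7 to 19.3 FPKM in WT. In these genes every library of one line lay below, and every library of the other above, all WT libraries.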

How the results depend on the processing

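The genes followed under alternatives were the tested members and the pathway and PR family genes called with a log2 fold change of at least 1 in size. That choice favours calls that last, so the count of values kept is partly built in. FMO1, WRKY46 and WRKY54, which passed the filter through 1 genotype, are among them. Over 1020 values of single genes under alternatives, 993 kept their direction and side of the threshold, 12 lost the call, 12 gained it and 3 turned sign. For the values that changed, the cause was not tested. The sign turned for PR3 in 35S:ERF13:MYC against WT without WT replicate 3 (0.04, range without each library -0.72 to 0.04), TGA7 in erf13-3 against WT without erf13-3 replicate 3 (0, range -0.35 to 0) and WRKY54 in erf13-3 against WT without WT replicate 1 (-0.15, range -0.15 to 0.85), none of them called. Leaving out 1 library, 3896 to 6714 genes and 1 to 2 members were called in 35S:ERF13:MYC against WT. Same-numbered libraries correlated at -0.26 to 0.44 in their deviations from the genotype means, over 0.1 in 4 of 9 pairs. Libraries of different number and genotype correlated at -0.37 to 0.31, over 0.1 in 5 of 18 pairs. With 3 libraries per genotype, these values cannot decide whether a replicate number marks a shared batch. With the replicate number as a block, 6523 genes were called in 35S:ERF13:MYC against WT, 5494 in erf13-3 against WT and 8008 in erf13-3 against 35S:ERF13:MYC, with 2, 5 and 5 members. In the last comparison 61.0% or 61.2% of the limma calls were higher, against 54.5% in edgeR. Depth limits ALD1, FMO1 and the WRKY genes, which had few counts.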
